A study of Mus musculus with 6 samples.

Results

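A set of 10 transcription factors that blood vessel and blood cells share were followed in translated messenger RNA of embryonic mouse brain endothelium. They are the Kruppel-like factors Klf2, Klf4 and Klf6, the GATA factor Gata2, the basic helix-loop-helix factors Tal1 and Lyl1, the LIM-only protein gene Lmo2, the homeobox gene Hhex, the zinc finger gene Mecom and the hypoxia-inducible factor gene Epas1. They were chosen by symbol, and all 10 were found among the 23327 gene symbols of the deposited table. Mecom has 2 rows, for the transcripts NM_007963 and NM_021442, so the 10 genes fill 11 rows; Mecom without further words means NM_007963, the row with the higher level.

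The study asked how dampened Wnt/beta-catenin signalling changes the developing blood-brain barrier. Ribosome-bound RNA of brain endothelial cells was isolated by translating ribosome affinity purification (TRAP), which recovers RNA on tagged ribosomes of a chosen cell type, and its polyadenylated part was sequenced. The groups were 3 wild-type libraries and 3 libraries that overexpressed Axin1, the scaffold on which beta-catenin is tagged for degradation, from an Axin1-IRES-LacZ transgene at the R26 (Rosa26) locus. All embryos were of a C57BL/6 x 129/Sv background, were taken at E14.5 (embryonic day), and had received tamoxifen through the mother at E12.5. The labels call the libraries of a group biological replicates and name neither the Cre driver nor the number of embryos in a library.

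KLF factors bind CACC-type sites; in endothelium Klf2 and Klf4 are induced by blood flow through the MEKK3-ERK5-MEF2 kinase cascade and are held down by the CCM complex, whose loss causes cavernous malformations of brain vessels. TAL1 or LYL1, paired with an E protein, joins GATA factors through the bridge protein LMO2 and a LIM-domain-binding adaptor (LDB1 or LDB2) to form a DNA-bound complex that specifies blood and endothelial cells. HHEX and MECOM act in the same early lineage, and EPAS1 (HIF2-alpha), stabilised when oxygen is low, is the hypoxia-inducible factor most typical of endothelium.

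The label of the genotype was checked first. Axin1 measured 13.6, 14.4 and 15.1 RPKM (reads scaled to transcript length and library size) in wild type and 37.8, 38.1 and 37.4 with overexpression. Its pathway readout Axin2 went from 19.3 ± 0.713 to 10.9 ± 0.637 RPKM (SD; -0.77 on the log2 scale, limma adjusted p = 0.000261). The endothelial markers Cdh5, Pecam1, Kdr, Tek, Tie1, Esam, Emcn, Erg, Flt1 and Eng, 10 in all, were present in every library. Their summed level was 2236 to 2313 RPKM in wild type and 2161 to 2422 RPKM with Axin1, so the labelled cell type carried its markers. The sum holds moves in both directions. At a limma adjusted p under 0.05, Emcn was higher (log2 fold change 1.05) and Tie1 (-0.31) and Esam (-0.24) were lower. The median log2 fold change of the 10 markers was -0.14. The wild-type libraries were deeper, with 53524184 to 62507510 recovered reads against 21076922 to 37040176. The 10 factors had 764 to 51004 reads each per library (Mecom NM_021442 had 45 to 160). In the column names every wild-type library carries the tag RS148 and every Axin1 library RS216; no source used here says what the tags mean, and if they mark a run, run and genotype cannot be told apart. In bulk samples, fewer cells of a type and less RNA per cell cannot be told apart either.

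Promoter sequence is shown for 3 genes whose rows bear on the results. Klf2 and Klf4 are paralogues under the same cascade that differ in level (Klf2 over Klf4 was 6.30 ± 0.513 in wild type, SD, n = 3), and the gene Mecom is read from rows of 2 transcripts that differ 13.0-fold on average in wild type. RefSeq promoter windows (GRCm38.p6, a later build than the authors' mm9) were matched for 8 of the 10 factors (11 windows, not Lmo2 and Epas1). Each sequence is the 250 bases before the annotated start, 5' to 3' on the gene's strand. Capitals mark matches on either strand. The searched letters were CCACCC for KLF factors. For GATA factors they were GATAA. TCF/LEF factors of the Wnt pathway were searched as CTTTGNT. The core of the hypoxia response element is ACGTG, which matches on both strands at the same place where it is preceded by C. The core of a MEF2 site was searched as CTA, any 4 bases, then TAG.
Klf2, chr8:72318812-72319061, plus strand: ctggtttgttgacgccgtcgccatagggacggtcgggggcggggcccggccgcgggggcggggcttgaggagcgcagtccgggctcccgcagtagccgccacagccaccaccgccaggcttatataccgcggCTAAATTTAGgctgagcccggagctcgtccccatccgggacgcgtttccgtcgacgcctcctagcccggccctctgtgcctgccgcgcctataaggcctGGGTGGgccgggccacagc
Klf4, chr4:55532476-55532725, minus strand: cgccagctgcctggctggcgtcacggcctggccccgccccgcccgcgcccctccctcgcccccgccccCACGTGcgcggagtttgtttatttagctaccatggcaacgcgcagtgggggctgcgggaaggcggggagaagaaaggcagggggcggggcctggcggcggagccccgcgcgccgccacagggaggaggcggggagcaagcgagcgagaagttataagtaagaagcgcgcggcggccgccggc
Mecom, chr3:30013205-30013454, minus strand: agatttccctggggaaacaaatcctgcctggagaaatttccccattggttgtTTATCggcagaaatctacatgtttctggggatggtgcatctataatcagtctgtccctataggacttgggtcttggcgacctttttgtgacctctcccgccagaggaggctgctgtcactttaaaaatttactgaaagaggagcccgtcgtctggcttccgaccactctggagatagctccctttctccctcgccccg
Mecom, chr3:30509760-30510009, minus strand: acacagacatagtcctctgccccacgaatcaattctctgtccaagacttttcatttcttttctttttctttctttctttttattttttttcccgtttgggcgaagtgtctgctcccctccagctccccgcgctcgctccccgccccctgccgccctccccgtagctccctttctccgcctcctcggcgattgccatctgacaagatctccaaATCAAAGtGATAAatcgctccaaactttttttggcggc
In the Klf2 window the MEF2 letters begin 118 bases before the start. They are found in 3.20% of all 32851 promoter windows of this length and in 1 of the 11 windows of the factors. The KLF letters of Klf2 begin 19 bases before the start; CCACCC is in 28.1% of all windows and in 3 of 11 here (Klf2, Lyl1 and Hhex). The Klf4 window holds none of these letters but the hypoxia response letters, present in 16.6% of all windows. In the upstream Mecom window (chromosome 3, start at 30509759), TCF/LEF letters begin 38 and GATA letters 30 bases before the start. CTTTGNT is in 16.0% of all windows and in 1 of 11 here, and GATAA is in 22.6% of all and in 3 of 11 here (both Mecom windows and the upstream window of Tal1). The transcript NM_007963 begins just downstream of the other Mecom window (start at 30013204) in the GENCODE annotation of the same build. Which start and exons the row NM_021442 stands for could not be settled, so the windows are not matched one to one with the rows. These matches describe letters in a window and do not show binding.

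The 10 factors spanned a 16.0-fold range of level in wild type, and their order was nearly the same in both groups. Lmo2 was highest at 263 ± 15.9 RPKM (SD, n = 3), rank 133 of 12493 tested rows, followed by Epas1 at 162 ± 7.65 and Klf2 at 103 ± 8.74 RPKM. Each of these 3 was above at least 95.5% of tested rows. Hhex (42.2 ± 3.03 RPKM) and Mecom (27.4 ± 2.87 RPKM) came next. None of these 5 overlapped with its neighbour in the order, in either group. The other 5 formed a plateau in wild type: Gata2 at 19.5 ± 0.953, Klf6 at 19.3 ± 1.39, Lyl1 at 18.3 ± 2.16, Tal1 at 18.3 ± 1.54 and Klf4 at 16.5 ± 1.55 RPKM (SD, n = 3). Neighbours on that plateau overlapped in both groups, so their order is not settled.

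**Figure D1:**
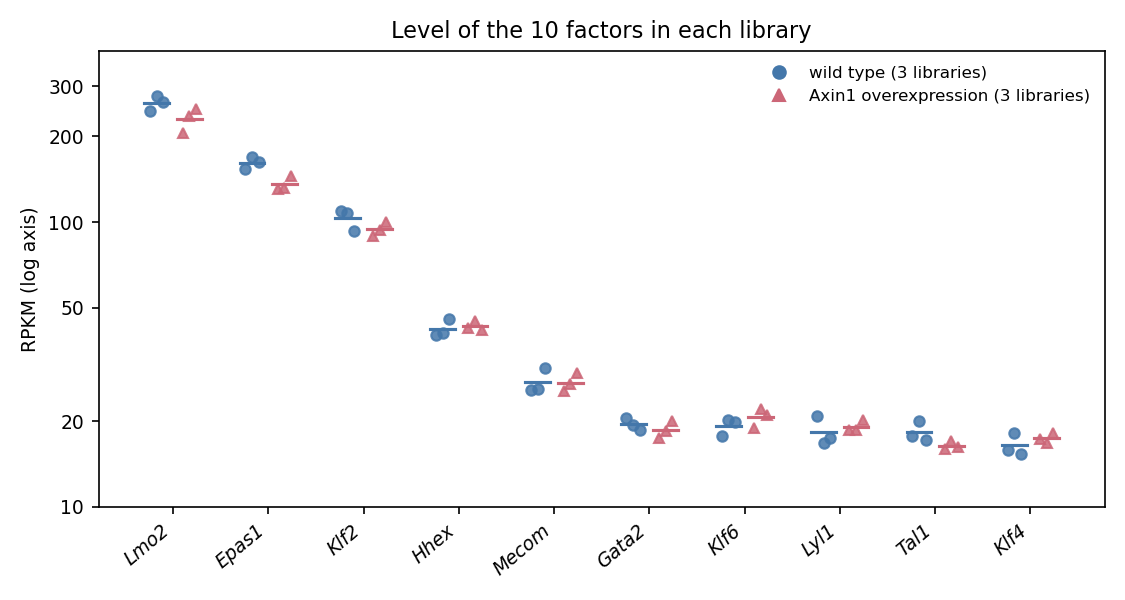
Level of the 10 factors in RPKM (log axis) in each of 3 wild-type libraries (circles) and 3 Axin1 overexpression libraries (triangles), with a line at each group's mean. Lmo2, Epas1 and Klf2 stand above the rest in all 6 libraries, and 8 of the 10 factors overlap between the groups.

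Of the 10 factors, 1 was lower and 0 were higher with Axin1 overexpression (limma on log2(RPKM + 1), Benjamini-Hochberg adjusted p under 0.05 over 12493 rows), where 22.8% of all tested rows were called, 14.4% higher and 8.37% lower. With median-of-ratios scaling in place of the deposited one, the split over all rows went from 1800 higher and 1046 lower to 1298 higher and 1338 lower, and the factors again gave 1 call. At an unadjusted p under 0.05 only Epas1 passed of the 10 factors. Of all 12493 tested rows, at least 4821 and fewer than 4880 passed at that threshold. The groups did not overlap for 2 factors, Epas1 and Tal1, where 43.9% of all tested rows did not overlap. The median log2 fold change of the factors was -0.03 beside 0.04 for all tested rows, and the median size of change was 0.09 beside 0.14. The 9 factors that did not pass had 95% intervals that reached no lower than 0.762-fold (Lmo2) and no higher than 1.21-fold (Klf6). Changes beyond these bounds lie outside the intervals of these 9 factors in this fit. For each of the 9, a change within its own interval could not be told from none with 3 libraries a group. Other processing moved the values. The log2 fold change of Lmo2 was -0.31 with GC content and length corrected for. That of Klf6 was 0.20 with scaling to the endothelial markers. The bounds therefore hold for the reported fit only.

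**Figure D2:**
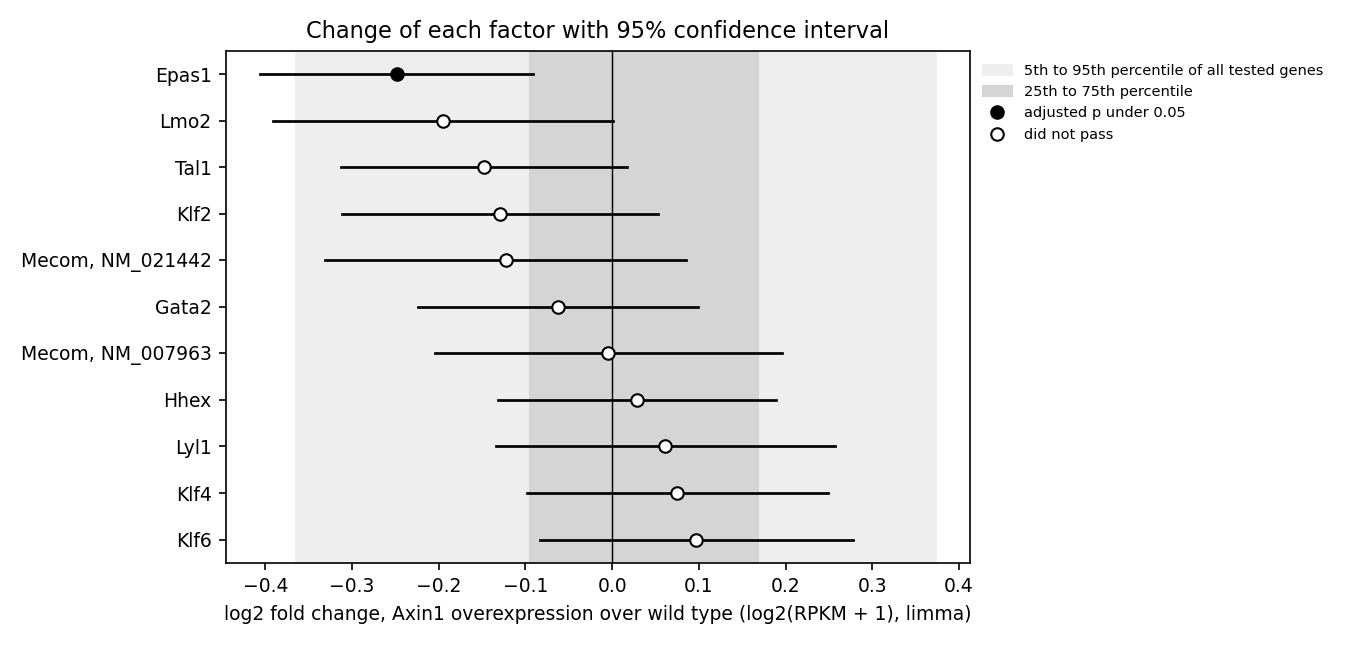
Log2 fold change of each factor row (Axin1 overexpression over wild type) with its 95% limma confidence interval, over grey bands for the middle of all 12493 tested rows. The filled point, Epas1 at -0.25, passed the test; the open points did not, and the intervals of all open points include 0.

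Epas1 fell with Axin1 overexpression. It measured 154, 169 and 163 RPKM in wild-type replicates 1 to 3 and 131, 132 and 146 RPKM in Axin1 replicates 1 to 3. Every Axin1 library lay below every wild-type library. Its mean fell by 15.9%, from 162 ± 7.65 to 136 ± 8.25 RPKM (SD, n = 3); on the log2 scale the difference was -0.25 ± 0.07 (SE; 95% interval -0.41 to -0.09), with a limma adjusted p of 0.0350. In the authors' deposited table Epas1 had an adjusted p of 0.0175 and a fold of 1.23, wild type over Axin1, and was the 1 factor of 10 under 0.05, where 8.88% of rows with a value were. The call was lost without any single library other than wild-type replicate 1 or Axin1 replicate 3 (adjusted p 0.0763 to 0.129), and when GC content and length were corrected for (log2 fold change -0.16, adjusted p = 0.142). Scaled to the 10 endothelial markers, an alternative added after seeing the data, the value was -0.15 (adjusted p = 0.324). Markers of neural progenitors also moved with the genotype: 5 of 8 were higher and 0 lower, with none at 0 and sums of 1679 to 1843 RPKM in wild type and 2175 to 2262 RPKM with Axin1. Of 8 neuron markers 3 were higher and 0 lower, with sums of 452 to 566 RPKM and 534 to 554 RPKM. Their part in the Epas1 value was not tested.

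Of 10 tested genes for hypoxia factors that pair with or control EPAS1, 1 was higher and 1 lower, a share near that over all rows, and the median log2 fold change was 0.03. The groups did not overlap for 5 of them (Hif1a, Arntl, Egln1, Egln3 and Vhl), where 43.9% of all tested rows did not overlap. Hif1a, the sister alpha subunit, measured 61.0, 48.6 and 67.1 RPKM in wild type and 72.4, 71.3 and 71.9 RPKM with Axin1 (log2 fold change 0.30, limma adjusted p = 0.0786), all 3 Axin1 libraries above all wild-type libraries. The ratio of Epas1 to Hif1a inside a library was 2.52, 3.47 and 2.42 in wild type and 1.81, 1.85 and 2.02 with Axin1. A single scaling factor per library cannot move this ratio, but a correction for GC content and length can. The groups did not overlap, and the exact permutation p was 0.10, the smallest that 3 against 3 allows (two-sided; 0.17 after adjustment over the 12 ratios computed). Arnt, the shared beta subunit, was at 18.7 ± 0.649 and 19.3 ± 0.503 RPKM (SD, n = 3). Egln1, the main oxygen sensor that marks HIF-alpha for destruction, was lower (41.4 ± 3.29 to 33.0 ± 0.848 RPKM, log2 fold change -0.31), a call lost without Axin1 replicate 2 or 3 and with scaling to the endothelial markers. Its homologue Egln3, itself induced by hypoxia, was higher (log2 fold change 0.33), a call lost under 11 of 16 alternatives.

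Of 15 hypoxia response genes in the test, 3 rose and 1 fell, and the median log2 fold change was -0.02. Ddit4, a stress-induced inhibitor of mTOR signalling, rose from 58.6 ± 4.47 to 75.3 ± 0.426 RPKM (SD, n = 3; difference on the log2 scale 0.36, limma adjusted p = 0.0102). Vegfa was higher by 0.32 from a level of 4.40 RPKM, a call lost under 10 of 17 alternatives, and Egln3 was the other higher gene. The glucose transporter gene Slc2a1, a barrier gene as well as a hypoxia gene, had a log2 fold change of -0.40. The endothelial receptor genes on this list, Kdr, Flt1 and Tek, did not pass (log2 fold changes -0.16, -0.12 and -0.05).

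The Kruppel-like factors did not pass in either direction. Klf2, a flow-induced factor of quiescent endothelium, measured 109, 108 and 93.3 RPKM in wild type and 89.3, 93.5 and 100.2 RPKM with Axin1. Wild-type replicate 3 lay among the Axin1 libraries, and the log2 fold change was -0.13 (SE 0.08, limma adjusted p = 0.265, 95% interval -0.31 to 0.05). Klf4, its paralogue under the same cascade, measured 15.9, 18.2 and 15.3 RPKM in wild type and 17.2, 16.7 and 18.1 RPKM with Axin1 (log2 fold change 0.08, 95% interval -0.10 to 0.25). Klf6, an injury-responsive factor, measured 17.7, 20.2 and 19.9 RPKM in wild type and 19.0, 22.0 and 21.1 RPKM with Axin1 (log2 fold change 0.10, 95% interval -0.08 to 0.28). For both, the groups overlapped.

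Klf2 held the largest share of the family. It made up 36.6 ± 2.26% of the summed RPKM of 17 KLF genes in wild type and 36.8 ± 1.10% with Axin1 (SD, n = 3), with overlap. Klf4 made up 5.70, 5.96 and 5.81% in wild type and 6.99, 6.46 and 6.88% with Axin1, and Klf6 6.36, 6.61 and 7.55% against 7.70, 8.50 and 7.99%. The ratio of Klf2 to Klf4 was 6.88, 5.92 and 6.09 in wild type and 5.18, 5.59 and 5.53 with Axin1. For these last 3 measures the groups did not overlap, each at an exact permutation p of 0.10, the smallest possible (0.17 adjusted over 12 ratios). The shares of Klf4 and Klf6 depend on the sum, in which other KLF genes were lower. Of 11 other KLF genes tested (3 more lay below 1 RPKM), 3 were lower and 0 higher by limma, with a median of -0.10. At an unadjusted p under 0.05 the counts were 4 lower and 1 higher, where at least 4821 of all 12493 tested rows passed.

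Klf13, a broadly expressed KLF repressor, went from 42.0, 53.7 and 40.7 RPKM to 33.1, 35.0 and 31.6 RPKM (log2 fold change -0.43, limma adjusted p = 0.0218). All Axin1 libraries were below all wild-type libraries; the call was lost without any 1 of the Axin1 libraries, with no filter on low values and when GC content and length were corrected for. Klf5, known for its role in smooth muscle and epithelium, went from 2.99 ± 0.733 to 1.59 ± 0.0497 RPKM (SD, n = 3; difference on the log2 scale -0.61, limma adjusted p = 0.0101), a call kept under all 16 alternatives that gave it a value. The third, Klf11, changed by -0.40 on the log2 scale and lost its call under 9 of 17 alternatives. Summed markers of pericytes and smooth muscle were 41.4 to 49.2 RPKM in wild type and 30.0 to 42.6 RPKM with Axin1 (3 of 8 tested lower, 0 higher), and their part in the lower Klf5 was not tested.

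Of the MEKK3-ERK5 cascade and the CCM complex, which act upstream of Klf2 and Klf4, 11 genes were tested, 2 were higher and 1 lower, with a median of 0.02. Mef2c, a MEF2 factor of the cascade, rose from 14.04, 13.2 and 15.6 RPKM to 17.6, 19.9 and 20.7 RPKM (log2 fold change 0.42, limma adjusted p = 0.0122), a call lost without Axin1 replicate 2. Heg1, the receptor that anchors the CCM complex at the membrane, was lower (44.6 ± 4.96 to 34.9 ± 1.64 RPKM, log2 fold change -0.34), a call lost under 7 of 17 alternatives. The CCM gene Pdcd10 was higher by 0.30, a call lost under 11 of 17 alternatives. The kinase genes Map3k3, Map2k5 and Mapk7 did not pass (log2 fold changes -0.19, 0.02 and -0.01).

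Genes known to respond to KLF2 and KLF4 in endothelium went both ways, with 3 of 14 tested higher and 3 lower and a median of -0.03. Nos3, the endothelial nitric oxide synthase, fell from 77.9, 74.8 and 73.3 RPKM to 55.8, 47.8 and 52.7 RPKM (log2 fold change -0.53, SE 0.07, limma adjusted p = 0.00262), a call kept under all 17 alternatives. The water channel gene Aqp1 rose from 3.44 ± 0.266 to 6.91 ± 0.711 RPKM (SD, n = 3; difference on the log2 scale 0.83), and the prostaglandin transporter gene Slco2a1 from 7.45 ± 1.03 to 10.9 ± 0.925 RPKM (log2 fold change 0.50). The protease gene Adamts1 was also higher (0.38, lost under 9 of 17 alternatives). Plat, the tissue plasminogen activator, was lower (-0.46, lost under 5 of 17). Ptgds, a prostaglandin D synthase that meningeal cells also express, measured 415, 164 and 173 RPKM in wild type and 56.5, 69.8 and 82.7 RPKM with Axin1 (log2 fold change -1.71). Wild-type replicate 1 was far above the other libraries, and the summed meningeal markers were 152.5 to 207 RPKM in wild type and 123 to 152.2 RPKM with Axin1 (2 of 9 tested lower); their part in the Ptgds value was not tested. Thbd, the anticoagulant receptor thrombomodulin and a classic KLF2 target, did not pass (log2 fold change 0.36, limma adjusted p = 0.0715).

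The factors of the TAL1 complex did not pass either. Lmo2, the bridge of the complex, measured 246, 277 and 265 RPKM in wild type and 205, 235 and 249 RPKM with Axin1. Axin1 replicate 3 lay just above the lowest wild-type library, and the log2 fold change was -0.20 (SE 0.09, limma adjusted p = 0.129, 95% interval -0.39 to 0.00). In the authors' deposited table Lmo2 had an adjusted p of 0.0563. After correction for GC content and length Lmo2 passed (log2 fold change -0.31, adjusted p = 0.0366), and in its other 16 alternatives it did not (adjusted p 0.0646 to 0.567). Without Axin1 replicate 1 the Lmo2 value was -0.12. Tal1 measured 17.7, 20.1 and 17.2 RPKM in wild type and 15.9, 17.0 and 16.2 RPKM with Axin1. Every Axin1 library lay below every wild-type library, by a narrow margin, and it did not pass (log2 fold change -0.15, SE 0.07, limma adjusted p = 0.167, 95% interval -0.31 to 0.02). Without wild-type replicate 2 the Tal1 value was -0.08.

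Lyl1, the close relative of Tal1, measured 20.8, 16.7 and 17.5 RPKM in wild type and 18.7, 18.5 and 20.1 RPKM with Axin1, with overlap (log2 fold change 0.06, 95% interval -0.13 to 0.26). An exon of Nfix lies opposite an exon of Lyl1 in the GENCODE annotation, and since the kit does not mark strand, reads of the overlap cannot be told apart. The ratio of Tal1 to Lyl1 was 0.85, 1.20 and 0.98 in wild type and 0.85, 0.92 and 0.81 with Axin1. The levels as counted were thus similar, but that of Lyl1 can include reads of the Nfix overlap. Gata2, the GATA factor of endothelium, measured 20.5, 19.3 and 18.6 RPKM in wild type and 17.5, 18.5 and 20.03 RPKM with Axin1 (log2 fold change -0.06, 95% interval -0.22 to 0.10). Gata2 made up 78.2 ± 2.04% of the RPKM of 6 GATA genes in wild type and 80.8 ± 1.82% with Axin1 (SD, n = 3), with overlap.

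Ldb2, an adaptor that joins LMO2 into its complex, was the partner that moved most. It measured 25.6, 23.8 and 27.0 RPKM in wild type and 50.03, 54.0 and 52.2 RPKM with Axin1, a rise in every Axin1 library above every wild-type library. Its log2 fold change was 1.01 (SE 0.07, limma adjusted p = 0.000104), called under all 17 alternatives at 0.81 to 1.11. Its homologue Ldb1 measured 141, 130 and 133 RPKM against 152, 154 and 148 RPKM and did not pass (log2 fold change 0.16, limma adjusted p = 0.0786). Lmo2 thus stood at 9.61, 11.6 and 9.83 times the level of Ldb2 per length in wild type and at 4.09, 4.36 and 4.78 times with Axin1. For Ldb1 these ratios were 1.74, 2.13 and 1.99 against 1.35, 1.53 and 1.69. Neither set of ratios overlapped between the groups (exact permutation p = 0.10 each, the smallest possible; 0.17 adjusted over 12 ratios).

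**Figure D3:**
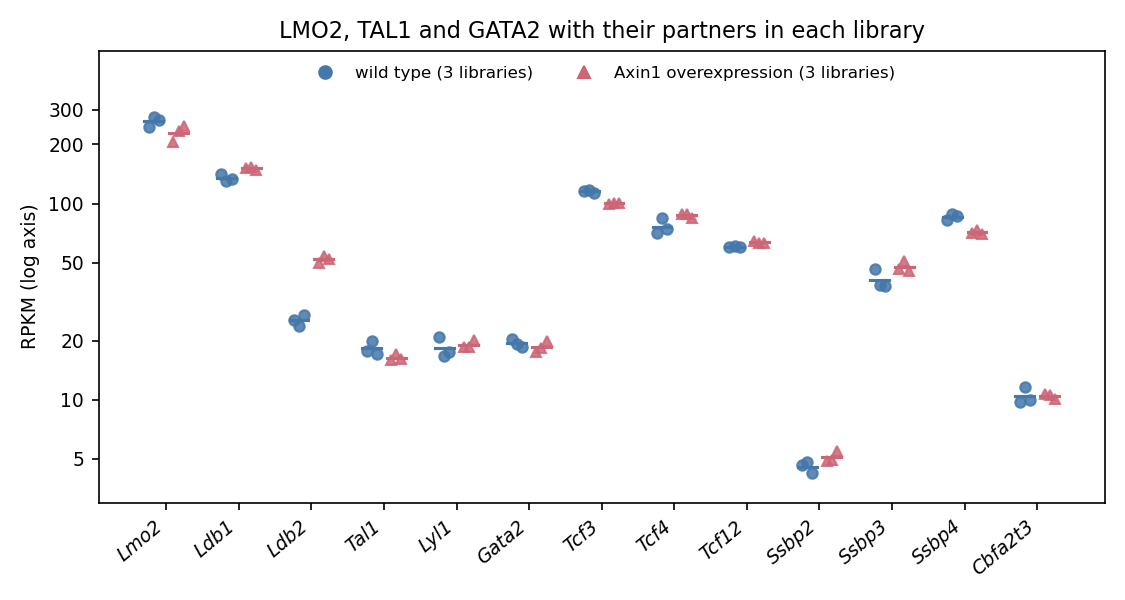
RPKM (log axis) of Lmo2, Tal1, Lyl1, Gata2 and their partners in 3 wild-type (circles) and 3 Axin1 overexpression libraries (triangles), with a line at each group's mean. Ldb2 moves from 25.4 to 52.1 RPKM on average, while Lmo2, Lyl1 and Gata2 overlap between the groups and Tal1 does not.

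Of 14 partner genes tested, 1 (Ldb2) was higher and 2 were lower, with a median of 0.10. Ssbp4, which stabilises LDB proteins, had a log2 fold change of -0.26 (lost under 4 of 17 alternatives). Tcf3, an E protein that pairs with TAL1, had one of -0.20 (lost under 9 of 17, among them each left-out library). The E protein genes Tcf4 and Tcf12 did not pass (0.19 and 0.07), nor did the corepressor gene Cbfa2t3 (0.00). Of 4 other GATA and FOG cofactor genes tested, Gata6 was higher and Gata3 and Zfpm1 were lower. Gata3 went from 4.70, 3.55 and 4.43 RPKM to 2.88, 2.77 and 2.25 RPKM (log2 fold change -0.52, limma adjusted p = 0.0106), called in all 16 alternatives that gave it a value. Gata3 also marks GABA neurons of the brain of the GATA and TAL lineage. Of that list 1 of 6 tested was lower (Gata3 itself), and its summed level was 24.7 to 28.8 RPKM in wild type and 23.4 to 25.1 RPKM with Axin1. The part of such neurons in the values of Gata2, Tal1 and Gata3 was not tested. Gata6, a cardiac and vascular GATA factor, rose from 1.17 ± 0.171 to 1.69 ± 0.0887 RPKM (SD, n = 3; difference on the log2 scale 0.31), a call lost under 4 of 16 alternatives. The FOG cofactor gene Zfpm1 changed by -0.28 on the log2 scale, lost under 5 of 17.

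Of 14 tested endothelial genes bound by GATA2, TAL1 or LMO2, 1 was higher and 1 lower, with a median of -0.01; the groups overlapped for 10. The sialomucin gene Emcn, a known GATA2 target, rose from 134, 141 and 134 RPKM to 287, 282 and 282 RPKM (log2 fold change 1.05, limma adjusted p = 3.65e-05). The adhesion gene Esam was lower by a small amount (log2 fold change -0.24, lost under 6 of 17 alternatives). The ETS factor genes Fli1 and Erg did not pass (-0.15 each). Their groups did not overlap, which held for 43.9% of all tested rows.

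Blood markers moved with the genotype beside these factors, which erythroid and stem cells also use. Of 14 erythroid markers, 6 were tested and 5 were higher and 1 (Epor, a call lost under 11 of 16 alternatives) lower; their summed level was 125 to 170 RPKM in wild type and 416 to 778 RPKM with Axin1. One of the 5, Hbb-b2, has 5 to 20 reads per library over an implied length of 4 bases. Its RPKM thus rests on few reads and on a length that no source used here explains. Without it 4 of 5 tested were higher, and the sums were 98.4 to 126 RPKM in wild type and 322 to 643 RPKM with Axin1. Hbb-y, an embryonic globin, went from 105, 82.0 and 86.8 RPKM to 377, 550 and 279 RPKM. The defining erythroid factors were near 0: Gata1 had at most 0.0193 RPKM in wild type and 0.105 RPKM with Axin1, and Klf1 at most 0.200 and 0.229 RPKM. Hba-a1, Hba-a2 and Hbb-b1 were listed at 0 in all 6 libraries. How reads that match more than 1 gene were counted is not known, so a listed 0 does not show that the RNA was absent. Of 11 listed markers of leukocytes, microglia, megakaryocytes and progenitors, 6 were tested, 1 was higher (Aif1, lost under 9 of 16 alternatives) and 1 lower (Kit), with sums of 34.5 to 36.3 and 29.1 to 37.4 RPKM. Runx1, a transcription factor of blood stem cells, was at 0.151 RPKM and the leukocyte marker Ptprc at 0.110 RPKM on average in wild type. The part of blood cells in the values of Tal1, Lyl1, Lmo2 and Gata2 was not tested.

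Hhex and Mecom were level between the groups. Hhex, an early homeobox factor of endothelium, measured 40.1, 40.8 and 45.7 RPKM in wild type and 42.5, 45.0 and 41.6 RPKM with Axin1 (log2 fold change 0.03, SE 0.07, limma adjusted p = 0.790, 95% interval -0.13 to 0.19). Mecom, whose NM_007963 row stands for the EVI1 form, measured 25.6, 25.8 and 30.7 RPKM in wild type and 25.4, 27.0 and 29.4 RPKM with Axin1 (limma adjusted p = 0.976, 95% interval -0.20 to 0.20). The row NM_021442, at an implied length of 1067 bases, measured 2.40, 1.71 and 2.30 RPKM in wild type and 1.86, 1.76 and 1.98 RPKM with Axin1 (log2 fold change -0.12, limma adjusted p = 0.351). Their ratio was 10.7, 15.1 and 13.4 in wild type and 13.6, 15.3 and 14.8 with Axin1, with overlap. The row NM_021442 passed in 2 of 16 alternatives (GC content and length, -0.34, adjusted p = 0.0388; without wild-type replicate 2, -0.22, adjusted p = 0.0486). Mecom also overlaps its antisense gene Mecomos in the GENCODE annotation, whose reads cannot be told apart without strand. Of 11 tested PRDM genes, the family of zinc finger factors to which Mecom belongs, 1 was higher and 0 lower by limma, with a median of 0.06. The higher one was Prdm1, a repressor of cell fate genes (7.75 to 9.81 RPKM on average, log2 fold change 0.31), a call lost under 4 of 17 alternatives.

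**Figure D4:**
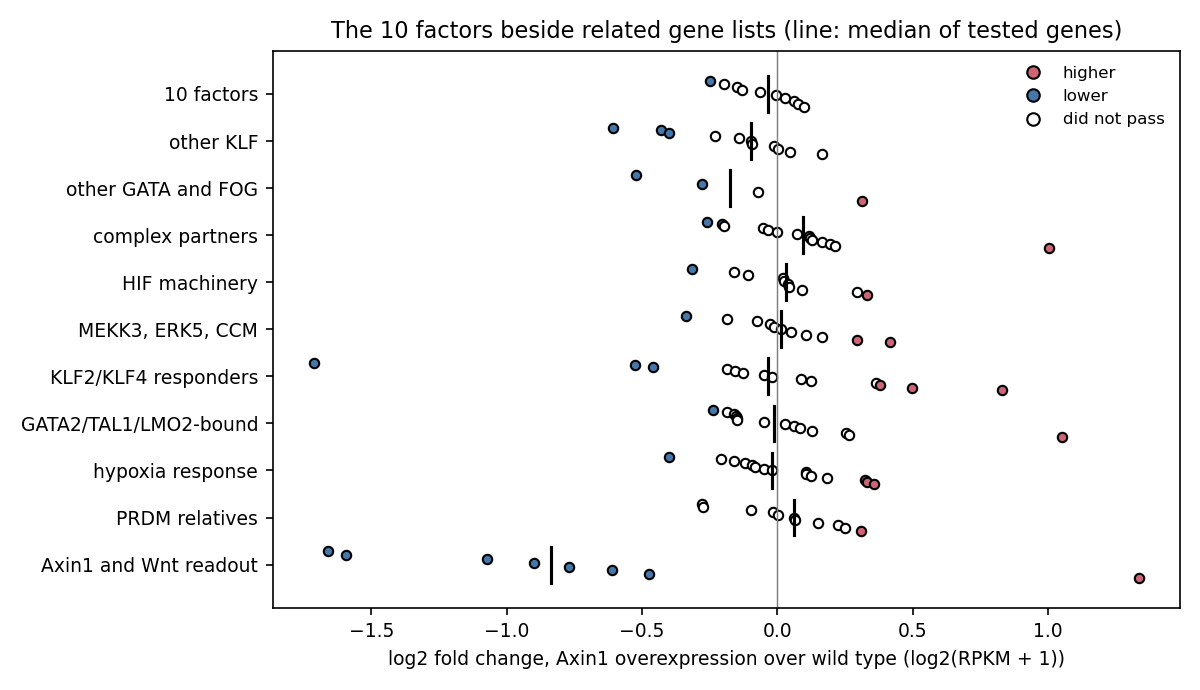
Log2 fold change (Axin1 overexpression over wild type) of each tested gene of the 10 factors and of related lists, with a line at each list's median; red genes were higher, blue lower and white did not pass. The 10 factors lie between -0.25 and 0.10, while Ldb2 among the complex partners and Emcn among the bound genes are above 1.

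The spread between replicates was like that of other rows. The coefficient of variation of the 10 factors within a group ran from 3.47% (Tal1, Axin1) to 11.8% (Lyl1, wild type). Their residual SD on the log2 scale was 0.08 to 0.12, with a median over all tested rows of 0.09, and 4 of the 10 lay below that median. By root mean square distance over the 6 libraries after centring, the rows most like Epas1 were Chrnb1, Bscl2 and Tmem134 (0.03 each), those most like Lmo2 were Usp43, Dtx3l and Zdhhc4 (0.01 to 0.03), and those most like Tal1 were Fam214b, Numa1 and Fam134c (0.01 each).

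**Figure D5:**
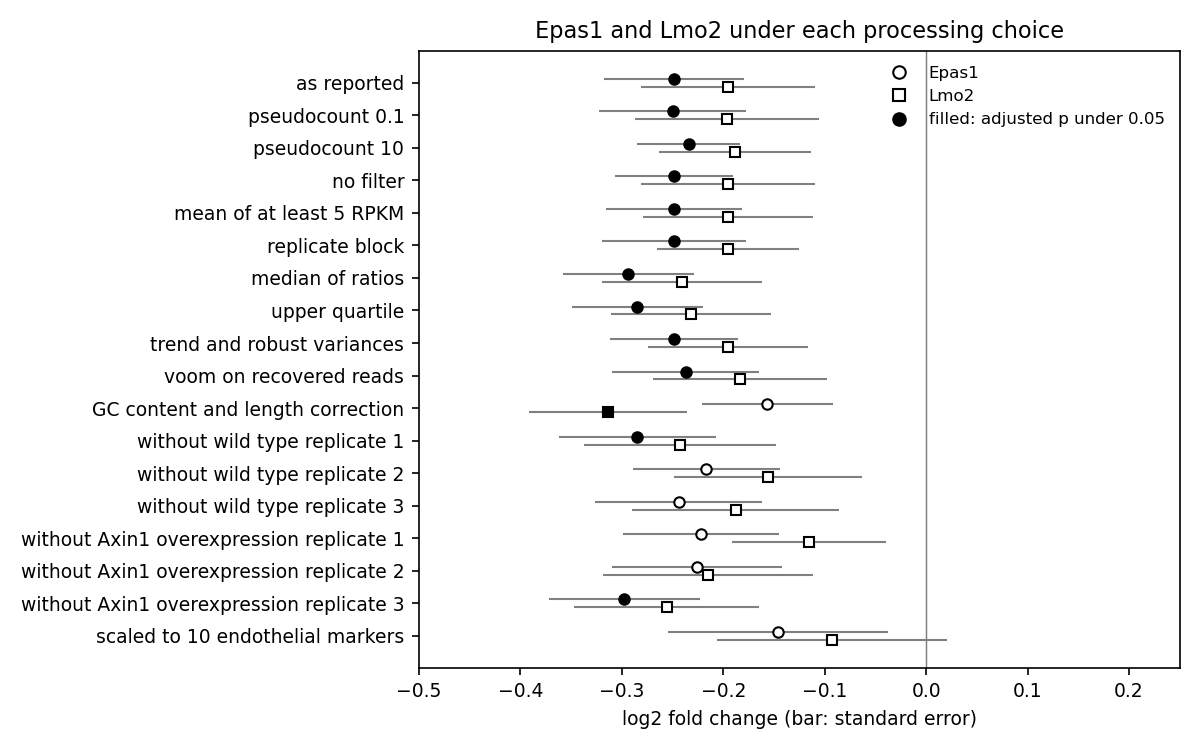
Log2 fold change of Epas1 (circles) and Lmo2 (squares) with its standard error under the reported fit and 17 alternatives; filled symbols had an adjusted p under 0.05. Both stayed below 0 throughout, Epas1 from -0.30 to -0.15 and Lmo2 from -0.31 to -0.09.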

How the data were processed

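Polyadenylated ribosome-bound RNA of 6 samples was sequenced, 3 wild-type and 3 Axin1 overexpression. The values the authors deposited per library and transcript row are RPKM, reads scaled to transcript length and library size; the header does not name the unit, which was settled from the values. Per the file headers, the deposited table also holds mean normalized signal per group (counts divided by DESeq size factors), a fold (ratio) and p-values with adjusted p-values. Bowtie, DESeq and build mm9 are named in the submitters' processing notes, with no versions; no source used here gives the read counter or the filters. The deposited fold is wild type over Axin1.

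Rows with a mean of at least 1 RPKM (12493) were tested with limma 3.58.1 in R 4.3.3 on log2(RPKM + 1), group only, Benjamini-Hochberg adjusted, threshold 0.05. Fold changes on this scale understate changes of low genes. Reads were recovered from RPKM and group means, giving 21076922 to 62507510 per library; 3 reads of a transcript of 1 kb correspond to 0.0480 to 0.142 RPKM, which covers counting error only. The labels do not say whether biological replicates came from separate litters, so p-values measure the spread between these samples. Ratios within a library were compared by exact permutation tests. Promoter windows are from RefSeq (GRCm38.p6), and overlapping genes from GENCODE M21.

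The 10 factors and all lists were chosen with earlier results of these data known. Named genes are the 10 factors, list genes with an adjusted p under 0.05, and markers that define a cell type. From the cell type lists and the Wnt pathway list, not every called gene is named. Other list genes named with values were chosen after their values were seen. The 3 rows nearest by root mean square distance are named for the 3 factors with the lowest p. Alternatives were 2 pseudocounts (0.1 and 10), other filters, median-of-ratios and upper-quartile scaling, trended robust variances, voom on recovered reads, a replicate block, a GC content and length correction and each library left out. Scaling to 10 endothelial markers was added after seeing the data.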

Additional observations from a re-analysis of the deposited data

How the results depend on the processing

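Over the 17 alternatives, 1 of the 10 factors was called in 12 and 0 in 5, among them the scaling to 10 endothelial markers (0 called), which was chosen after seeing the data. Leaving out 1 library gave 0 to 1 called factors. With GC content and length corrected for, the called factor was Lmo2 and not Epas1, and 1852 genes were called in place of 2846. Leaving out 1 library gave 1054 to 2318 called genes, lowest without Axin1 replicate 2 (1054) and Axin1 replicate 3 (1402). The cause was not tested, except that a left-out library leaves fewer samples. With the replicate number as a block, 2675 genes and 1 factor (Epas1, limma adjusted p = 0.0457) were called. The deviations of same-numbered libraries correlated at 0.08, 0.13 and 0.06. Such values cannot settle whether same-numbered libraries shared a litter or a day, which the labels do not state. The split of higher and lower genes was 1800 and 1046 as reported, 1298 and 1338 with median-of-ratios scaling, 1391 and 1276 with upper-quartile scaling, 997 and 855 with GC content and length corrected for, and 2652 and 582 with endothelial scaling. Over all tested genes the median change (log2) lay between 0.00 and 0.13. Klf2, Tal1, Lmo2 and Epas1 were below 0 and Klf4 and Lyl1 above 0 in all 17 alternatives. The sign was the reported one in 15 of 17 for Gata2, 16 for Klf6, and 12 each for Hhex and Mecom, none of which was called. DESeq2 and edgeR were planned only for a deposited counts column and were not run. Recovered reads were tested with voom. They were whole within 0.05 reads for 83.6% of values. The share was 99.99% in rows of 1 transcript and 24.0% in rows of several, to which Lmo2 and Ldb2 belong. Mecom NM_021442 rests on 45 to 160 reads per library.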

Other observations

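Kit, the stem cell factor receptor and a known target of TAL1 and GATA2 in progenitors, fell from 17.6 ± 0.504 to 11.7 ± 0.366 RPKM (SD, n = 3; difference on the log2 scale -0.54, limma adjusted p = 0.000816), called in all 17 alternatives. Among the neural progenitor markers Pax6, Sox2 and Vim were higher in all 17 alternatives.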
